A study of Mus musculus with 12 samples.

Results

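The potassium channel subunits of the mouse retina were followed in polyribosome-bound RNA of rods and in total retinal RNA. A gene was taken as a subunit when its symbol began with Kcn, then a family letter and a number, and antisense entries were left out. Kcnv2 and Kcnj10 were also left out by the rule and are given only for comparison. This gave 92 genes of the 56748 in the deposited table, of which 91 code for proteins and 1, Kcnq1ot1, is a noncoding RNA antisense to Kcnq1. Of the 92 genes, 83 had a mean level of at least 1 read in at least 1 group and were tested. The other 9 were Kcna7, Kcna10, Kcne1, Kcnj1, Kcnj15, Kcnk7, Kcnk16, Kcnk18 and Kcnn4, and Kcnk18 had 0 reads in all 12 libraries. Among the tested genes, 8 reached the minimum only through the retina.

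Rod-TRAP pulls down ribosomes that carry an epitope tag only in cells that express Cre, here under a rhodopsin promoter, so that the bound mRNA comes mainly from rods. Every mouse, controls included, carried the rod Cre and 2 copies of the Ribo-Tag allele. Control mice (wt in the library titles, and Pkm2_Rodhet, designated WT, in the study's methods) had 1 floxed Pkm2 allele and Pkm2_Rodko mice had 2. The control itself thus lacks 1 functional allele in rods. Tissue was frozen after cycloheximide perfusion, and each genotype gave 3 Rod-TRAP libraries (rods) and 3 libraries of the input lysate (retina). The study's methods give an age of 2 months, whereas the deposited design gives 2 weeks. The labels do not state that libraries of a group came from separate animals, so p-values measure the spread between these libraries.

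Levels are given as common-scale reads, which are reads per gene after scaling all 12 libraries to the same effective size of 18053709 reads. Totals ran from 13458890 to 22790074 reads per library, and both of the extremes lay in control rods. Pkm, the targeted gene, averaged 67350 in control rods and 29110 in Pkm2_Rodko rods (log2 difference -1.21, adjusted p = 8.64e-07, limma). The table does not separate its splice forms. All 20 rod markers were higher in control rods than in control retina, with a median log2 difference of 1.91. Markers of other cells were mostly lower, with medians of -3.06 for 20 bipolar, -2.81 for 12 Müller and -3.12 for 13 amacrine genes. The median was -0.716 for 12 cone and -2.44 for 12 pigment epithelium markers. The bipolar, cone and pigment epithelium lists each held 1 marker called higher in control rods. None of these lists was at 0 in rods. Summed amacrine markers were 2772 to 4146 reads in control rods and 23579 to 24477 in control retina. Retina here is a mixture that includes rods, and in such a mixture fewer cells of a type cannot be told apart from less RNA per cell.

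Potassium channels set the resting potential and shape the light response. Voltage-gated (Kv) channels open on depolarization, and silent Kv subunits change the behaviour of the channels they join. Inward rectifiers hold the membrane near the potassium equilibrium potential, two-pore-domain channels carry a leak current, and auxiliary subunits modify trafficking and gating without forming a pore.

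The pore-forming subunits share a short selectivity filter, and its coding sequence is shown for Kcnj14, which was higher in rods, beside Kcnj2, a relative that was lower. Capitals mark the 15 bases of the filter signature in a 75-base coding stretch from the GENCODE vM21 transcripts, read 5′ to 3′ on the coding strand.
Kcnj14: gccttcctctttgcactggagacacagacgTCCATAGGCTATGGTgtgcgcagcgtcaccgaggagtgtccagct
Kcnj2: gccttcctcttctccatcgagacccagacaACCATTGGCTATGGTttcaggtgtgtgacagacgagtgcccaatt
On GRCm38 the Kcnj14 stretch lies at chr7:45819603-45819677 on the minus strand, in exon 2 of 3, and the Kcnj2 stretch at chr11:111072177-111072251 on the plus strand, in exon 2 of 2. They were identical at 54 of the 75 bases (72%), and no identical 50-base stretch was shared between the transcripts of the pair. Translated in frame, the signature was found in all 17 Kv1 to Kv4 genes, 9 silent Kv, 8 EAG, ERG and ELK, 5 KCNQ, 8 calcium- or sodium-activated, 14 inward rectifier and 14 two-pore-domain genes, and in 0 of 16 auxiliary genes.

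The levels of the members in rods spanned several orders of magnitude. Per kilobase of exon, Kcnj14, which encodes an inward rectifier, had the highest level of all members in control rods at 9139 ± 900.5 common-scale reads (SD, n = 3), with libraries from 8116 to 9815. Kcnab2, a cytoplasmic beta subunit of Kv1 channels, stood at 1051 ± 233.6, with libraries from 826.3 to 1293. Kcne2, a single-pass auxiliary subunit, stood at 203.5 ± 18.7. The libraries of these 3 genes did not overlap.

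Lower levels were found for Kcnh6, an ERG channel, at 87.1 ± 1.32 per kilobase, Kcna5, a Kv1 channel, at 78.3 ± 8.80, and Kcnab3, another beta subunit, at 58.7 ± 16.1. The libraries of Kcnh6 and Kcna5 overlapped, as did those of Kcna5 and Kcnab3, so neither pair could be ordered. In control retina Kcnj14 (3543 ± 245.8 per kilobase) was again the highest, and Kcnab2 stood at 1046 ± 89.2. Further down were Kcna5 (499 ± 32.3), Kcne2 (456.5 ± 77.9), Kcnj9, a G protein-gated inward rectifier (339 ± 12.2), Kcnip3, a calcium-binding partner of Kv4 channels (258), and Kcnk1, a two-pore-domain channel (251).

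**Figure D1:**
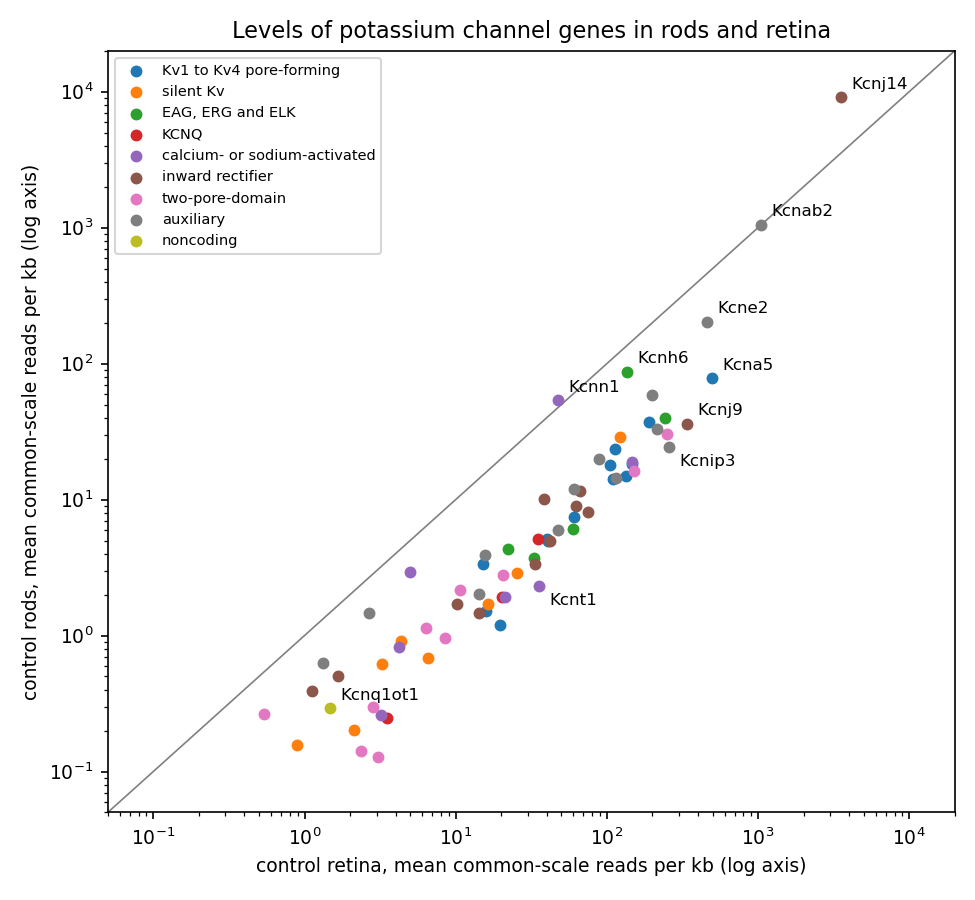
Mean common-scale reads per kilobase of exon in control retina (horizontal, log axis) and control rods (vertical, log axis) for 72 members, coloured by family; members at 0 in either group are not drawn. The line marks equal levels, and 3 of the members drawn lie above it, with Kcnj14 at the upper end.

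Kcnj14 made up 23.7% ± 0.814 of all member reads in control rods and 12.5% ± 0.427 in control retina (SD, n = 3). Kcnab2 contributed 5.57% ± 0.859 and 7.59% ± 0.615. In Pkm2_Rodko mice the share of Kcnj14 was 24.1% ± 3.25 in rods and 13.5% ± 1.01 in retina. These are shares of reads, which also depend on transcript length.

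The comparison of rods with retina asked which subunit transcripts were higher or lower in the rod pulldown than in the input. It sets ribosome-bound RNA against total RNA, so level in rods cannot be told apart from binding to ribosomes. In control mice 2 of the 83 tested members were higher in rods and 71 were lower, while 10 did not pass the test (limma on log2(level + 1), Benjamini-Hochberg adjustment over all 25584 genes tested). Of all genes tested, 23.5% were higher and 35.5% lower. With total reads only in place of TMM scaling, 2 members were higher and 73 lower, while over all genes 2184 were higher and 12706 lower, against 6001 and 9083 with TMM. The median log2 difference was -2.62 for the members and -0.366 for all genes. In Pkm2_Rodko mice 2 members were again higher and 71 lower, against 23.9% and 35.1% of all genes, with medians of -2.95 and -0.321. Of the 83, 8 averaged under 1 read in both rod groups and were tested through their retina values only, which favours a lower call, and 5 of the 71 called lower in control mice were among them. Of the 64 members averaging at least 10 reads over all 12 libraries, 59 were lower in control and 60 in Pkm2_Rodko mice. That limit was chosen after the data were seen. It averages rods and retina together, here and in the families below, so a member can pass through its retina values alone. Kcna3 did so, averaging 2.26 in control rods and 37.5 in control retina. The share of all genes at that limit was not counted. At a mean of at least 50, taken the same way, 43 of 47 members were lower in control mice, against 4130 of 12730 genes. Across both genotypes 2 members were higher in both, 68 lower in both, 3 lower only in control, 3 lower only in Pkm2_Rodko, and 7 passed in neither.

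Kcnj14 (ENSMUSG00000058743) had 25770, 22050 and 26670 common-scale reads in control rods and 9109, 9387 and 10380 in control retina. In Pkm2_Rodko mice it had 26650, 26510 and 22420 in rods and 11780, 10560 and 10360 in retina. Every rod library lay above every retina library, and the log2 difference was 1.36 (SE 0.0948, adjusted p = 6.43e-09, limma) in control and 1.21 (adjusted p = 2.18e-08) in Pkm2_Rodko mice. The related strong inward rectifiers encoded by Kcnj2 and Kcnj12 were lower in rods, at log2 differences of -3.55 and -2.49.

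Kcnab2 had 5771, 4609 and 7210 in control rods and 5866, 5322 and 6316 in control retina. The fractions overlapped, with a log2 difference of -0.01 (95% interval -0.31 to 0.28). Kcnn1, a small-conductance calcium-activated channel singled out after its values were seen, had 288.2, 196.3 and 256 in control rods and 231.9, 202.4 and 221.9 in control retina (log2 difference 0.16, 95% interval -0.14 to 0.46). For both genes the call depended on scaling. With total reads only, Kcnab2 stood at -0.56 and Kcnn1 at -0.39, both called lower, while the median of all genes moved to -0.761. Kcnj14 (0.81) was called higher under that scaling too.

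**Figure D2:**
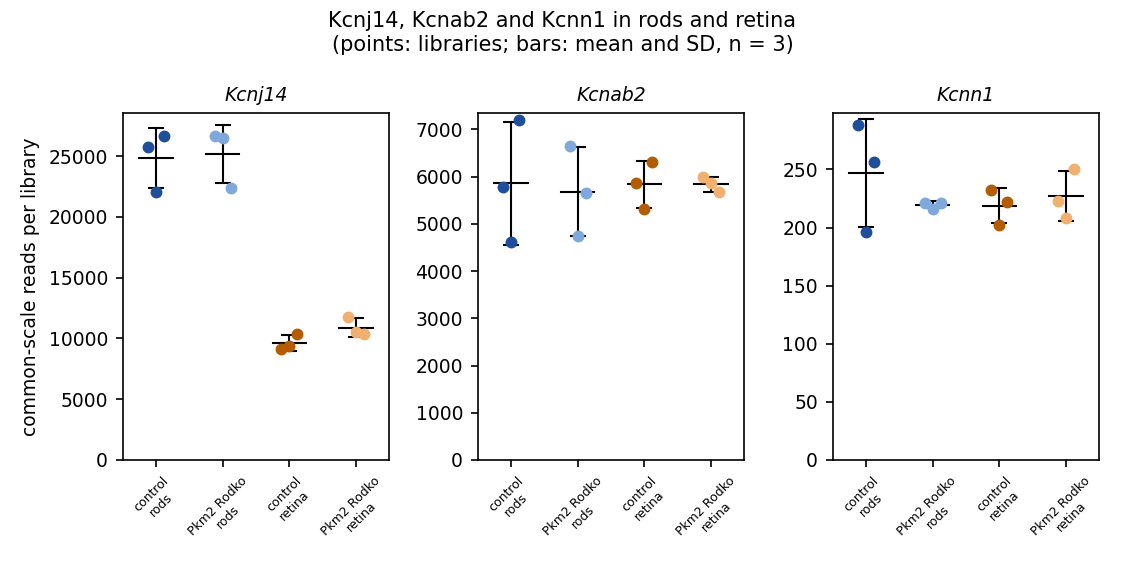
Common-scale reads in each library (points) for Kcnj14, Kcnab2 and Kcnn1 in the 4 groups, with mean and SD (n = 3); each panel starts at 0. Rod and retina libraries are apart for Kcnj14 and overlap for Kcnab2 and Kcnn1.

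Among the Kv1 to Kv4 genes, which carry most delayed-rectifier and A-type currents of neurons, 14 of 15 tested were lower in control rods. Their median was -2.96. Kcnb2 stood at -3.44, with 18.01, 37.2 and 14.3 in control rods against 226.1, 245.6 and 255.2 in control retina, so that its fractions did not overlap. Kcna2 (-3.17), Kcnc1 (-2.38), Kcnc2 (-2.96) and Kcnd2 (-3.00), a Kv4 channel, were all lower, and Kcna3 stood at -3.86 on 0 to 3 reads per control rod library. Silent Kv genes form channels only with other Kv subunits. The 4 silent genes averaging at least 10 reads over all libraries were lower in both genotypes. The other 5 were also called lower, but Kcng3, Kcns1 and Kcnv1 were tested through their retina values only, and the call for Kcng3 was lost with edgeR (adjusted p = 0.113) and DESeq2 (adjusted p = 0.157) in control mice. It was also lost without control rod replicate 1 or 2 or control retina replicate 1 (adjusted p = 0.0899 to 0.104, limma). Kcnv1, the other Kcnv gene, had 0 reads in all 3 control rod libraries and 9.14, 9.90 and 10.15 common-scale reads in control retina, at least 7.51-fold lower in rods (floor of 3 reads over the group). Kcnv2 itself averaged 24980 in control rods and 9795 in control retina (log2 difference 1.35).

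Of the 8 EAG, ERG and ELK genes, 6 were lower in control rods. Kcnh6 was the least reduced of the 6, with 314.4, 307.9 and 305.3 in rods and 477.2, 497.5 and 477.8 in retina (log2 difference -0.65, SE 0.116, adjusted p = 1.85e-04, limma). Kcnh2, another ERG gene, stood at -2.62, and Kcnh1, an EAG channel, at -3.11. Kcnh8, an ELK channel, had 0 reads in all control rod libraries and was at least 17.6-fold lower in rods. Several of the KCNQ genes encode slow M-type channels. The 4 averaging at least 10 reads over all libraries were lower in both genotypes, with Kcnq3 at -3.43 and Kcnq5 at -3.63. Kcnq5 had only 0, 1 and 3 reads in control rods and 0, 1 and 2 in Pkm2_Rodko rods. Kcnq1 had 0 reads in control rods and 6, 0 and 13 in control retina, so its fractions overlapped. It was tested through its retina values only, and its call in control mice (adjusted p = 0.0354, limma) was lost with a pseudocount of 0.1 (adjusted p = 0.0523) and absent in Pkm2_Rodko mice (adjusted p = 0.214). Leaving out any control library but retina replicate 2 also ended it (adjusted p = 0.0693 to 0.177, limma).

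Calcium- or sodium-activated channels were lower for 5 of 7 tested genes (median -3.04). Kcnma1, the large-conductance BK channel, fell from 2496, 2515 and 2506 in control retina to 217.8, 456.8 and 281.4 in control rods. Kcnt1, a sodium-activated channel, showed a difference of -3.97. Of 12 inward rectifiers tested, 10 were lower (median -2.68), including Kcnj9 at -3.26 and Kcnj13, a channel of the pigment epithelium, at -3.07. Among the 10 averaging at least 10 reads over all libraries, 9 were lower in each genotype. Kcnj16 had 0, 5 and 0 reads in control rods and 6, 6 and 4 in control retina, so its fractions overlapped. Its control call (adjusted p = 0.0413, limma) was lost with edgeR (adjusted p = 0.344) and DESeq2 (adjusted p = 0.372). In Pkm2_Rodko mice it was also called lower (adjusted p = 0.00111, limma). Kcnj13 shares 49.1% of its exon bases with Gigyf2 on the opposite strand, and its control retina values ran from 21.6 to 89.2. Kcnj10, the main Müller cell inward rectifier, stood at -2.90. Two-pore-domain genes were lower for 10 of 11 in control (median -2.86) and 8 in Pkm2_Rodko mice, with Kcnk1 at -3.03 and Kcnk2 at -2.44. The 6 averaging at least 10 reads over all libraries were lower in both genotypes. Kcnk10 stood at -3.63 on 0, 4 and 0 reads in control rods. Its Pkm2_Rodko call was lost with a pseudocount of 0.1 (adjusted p = 0.0713, limma). In control mice the call was lost with edgeR for Kcnk5 (adjusted p = 0.0511) and with that pseudocount for Kcnk12 (adjusted p = 0.0561, limma). The Kcnk13 fractions overlapped.

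Auxiliary subunits were lower for 11 of 15 in control mice (median -2.17). Among the 11 averaging at least 10 reads over all libraries, 10 were lower in each genotype. Kcne3 and Kcnmb1 were tested through their retina values only. Kcnmb1, with 0 reads in every rod library, was called lower. Its Pkm2_Rodko call was lost without any 1 of the Pkm2_Rodko rod libraries (adjusted p = 0.0597 to 0.0624, limma). Kcne2 differed by -1.15, with 350.4, 396.3 and 332.3 in control rods and 844.6, 921.2 and 654 in control retina. Kcnab3 stood at -1.79, Kcnip1 at -3.00, Kcnip3 at -3.42 and Kcnmb4, a beta subunit of BK channels, at -1.94. Kcnmb4 overlaps 2 antisense genes over 20.8% and 10.7% of its exon bases, and the strand setting of the counting is not known. Kcnq1ot1 stood at -2.30, and as it is noncoding, its level in rods cannot be read from ribosome-bound RNA. The members that did not pass, apart from Kcnab2 and Kcnn1, averaged under 20 common-scale reads in both fractions.

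**Figure D3:**
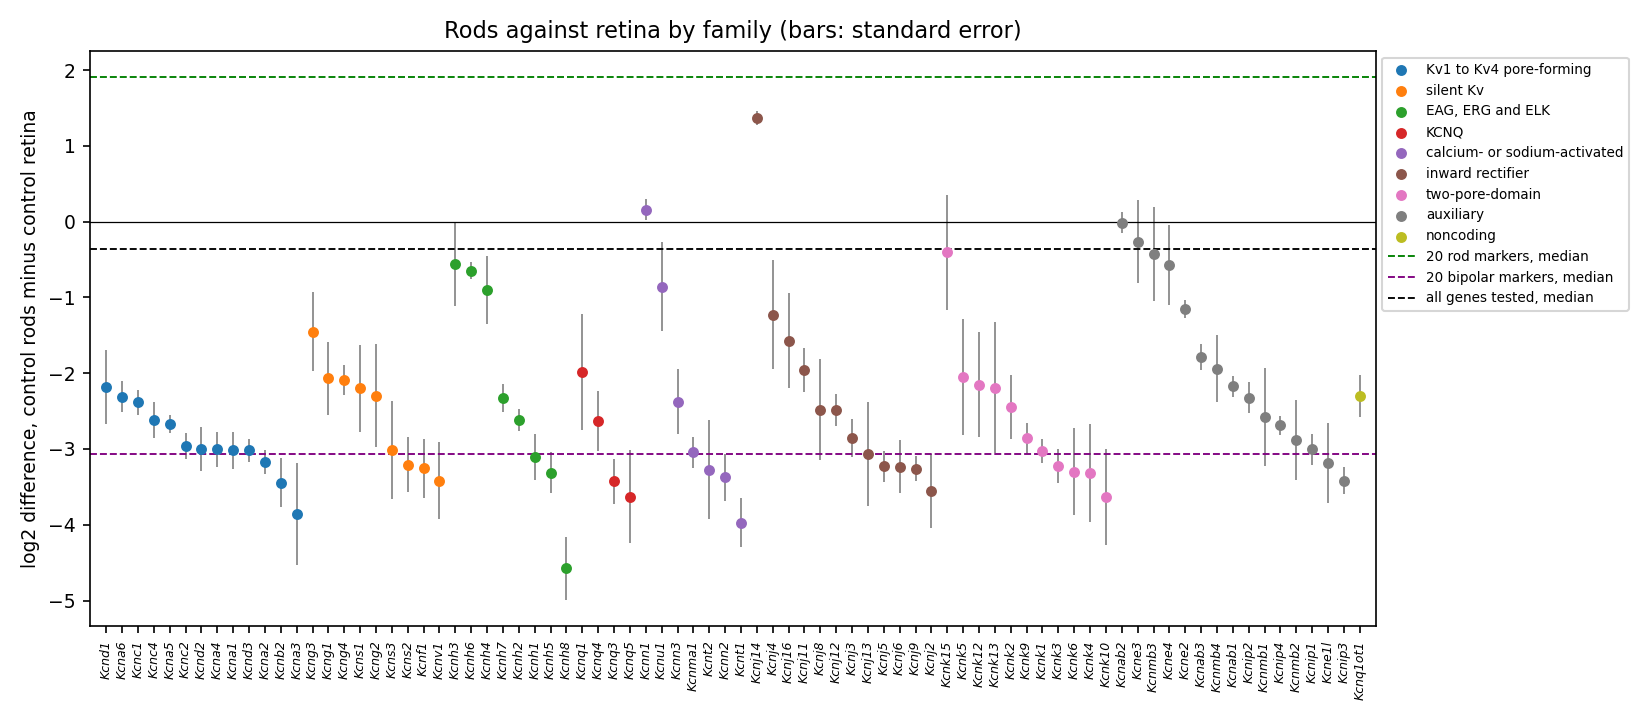
Log2 difference between control rods and control retina (vertical) for 80 of the members tested, grouped by family and coloured, with standard errors as bars. Dashed lines give the medians of 20 rod markers (1.91), 20 bipolar markers (-3.06) and all genes tested (-0.366); of the members drawn, Kcnj14 (1.36) alone is called higher.

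A list of 15 genes whose products partner with potassium channels or carry related currents was read in the same fit. Of 14 tested, 11 were lower in control rods and 1 was higher. Hcn3 and Hcn4, hyperpolarization-activated channels, were lower at -2.98 and -3.20. Amigo1, a membrane protein that associates with Kv channels, was lower at 454.3 against 1249 (-1.47). Dpp6 and Dpp10, partners of Kv4 channels, stood at -3.09 and -2.57, and Abcc8 and Abcc9, sulfonylurea receptors, at -3.80 and -4.47.

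The comparison of genotypes asked whether loss of Pkm2 in rods goes with another level of any subunit. No member passed in rods (0 of 83, limma), and of all genes 0.0664% were lower and 0% higher. At an unadjusted p under 0.05, 20 members were lower and 1 was higher, where all genes gave 5.97% and 2.4%. On the same reads edgeR called 0 members and DESeq2 called 3, Kcnab1, Kcnip4 and Kcnh6. The share of all genes called by edgeR or DESeq2 was not counted, so these calls cannot be set against it. The median log2 difference was -0.292 for members and 0 for all genes, and 63 of 83 members (75.9%) lay below 0 against 46.6% of all genes. Libraries of the genotypes did not overlap for 10 members with lower and 1 with higher values in Pkm2_Rodko rods, against 4.56% and 3.56% of all genes.

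Kcnj14 and Kcnab2 did not pass. The log2 difference in rods was 0.02 for Kcnj14 (95% interval -0.18 to 0.22) and -0.03 for Kcnab2 (95% interval -0.33 to 0.26).

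Kcnh6 had 314.4, 307.9 and 305.3 in control rods and 208.2, 217.3 and 227.4 in Pkm2_Rodko rods. The genotypes did not overlap in rods, whereas the 3 Pkm2_Rodko retina values of 392.8, 556.7 and 471.9 surrounded the control retina. The log2 difference in rods was -0.51 (SE 0.116, unadjusted p = 5.54e-04, adjusted p = 0.128, limma), and it was -0.05 in retina. Kcnab1, a Kv1 beta subunit, had 139.2, 193.5 and 179.7 in control rods and 102.8, 127.7 and 94.6 in Pkm2_Rodko rods (log2 difference -0.65, adjusted p = 0.105, limma). Kcnip4, a Kv4 partner, had 101.5, 134.9 and 122.4 against 83.3, 80.1 and 73.4 (log2 difference -0.59, adjusted p = 0.11, limma). In both genes every Pkm2_Rodko rod library lay below every control rod library.

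Kcna5 and Kcnh2 had the next smallest p-values and were singled out after their values were seen. Kcna5 had 212.8, 253.1 and 206.7 in control rods and 167.9, 149.4 and 156.9 in Pkm2_Rodko rods (log2 difference -0.50, adjusted p = 0.132, limma). Its transcripts share 79 identical 50-base stretches with those of Kcna6, so reads could be split between them. Kcnh2 stood at -0.50, with overlapping genotypes (adjusted p = 0.253, limma). The smallest p-value belonged to Kcnh8, with 0, 0 and 0 reads in control rods and 2, 3 and 3 in Pkm2_Rodko rods (adjusted p = 0.0713, limma). Kcne4, an auxiliary subunit, had the reverse, with 2, 4 and 3 reads in control rods and 0 in each Pkm2_Rodko rod library (adjusted p = 0.128, limma). Both rest on counts near the detection limit.

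**Figure D4:**
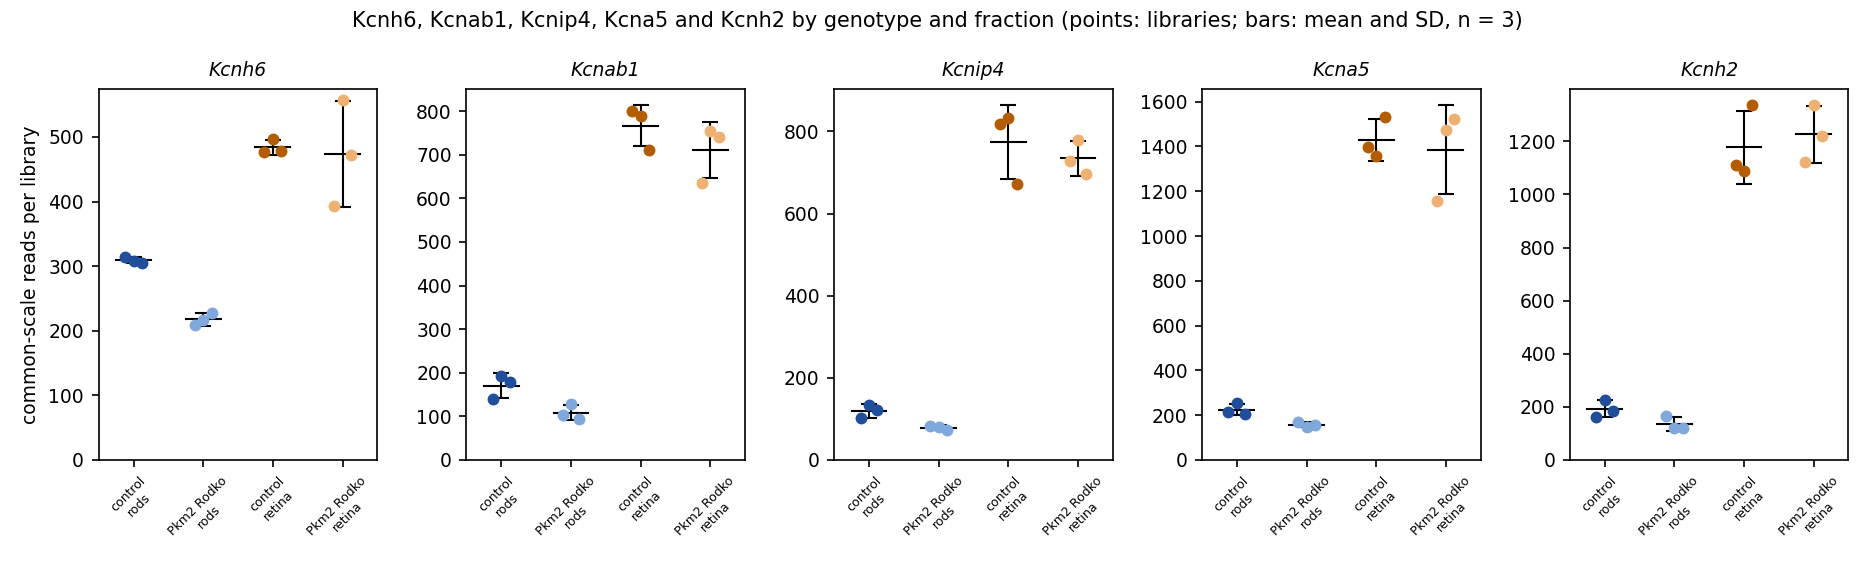
Common-scale reads in each library (points) for Kcnh6, Kcnab1, Kcnip4, Kcna5 and Kcnh2 in the 4 groups, with mean and SD (n = 3); each panel starts at 0. Genotypes are apart in rods for the first 4 genes and overlap for Kcnh2, and none of the 5 passed adjustment.

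Markers of other retinal cells also had medians below 0 in this comparison. The median log2 difference between genotypes in rods was -0.61 for 13 amacrine, -0.427 for 20 bipolar, -0.329 for 12 Müller and -0.368 for 12 ganglion cell markers, and 0.0429 for 20 rod markers. It was -0.493 for 9 endothelial, -0.344 for 6 horizontal cell, -0.117 for 12 cone, -0.113 for 12 pigment epithelium and -0.101 for 10 microglia markers. Below 0 were 12 of 13 amacrine and 19 of 20 bipolar genes, of which 0 and 2 passed. Summed amacrine markers ran from 2343 to 2622 in Pkm2_Rodko rods, below the control rods, and no amacrine marker was at 0. Summed Müller, horizontal cell and endothelial markers were also below the control rods. Bipolar sums overlapped, at 7701 to 10039 in Pkm2_Rodko and 8633 to 10155 in control rods. So did ganglion cell, cone, pigment epithelium, microglia and rod sums. In retina the genotype medians of these lists ran from -0.318 (microglia) to 0.0886 (pigment epithelium). They were -0.201 for bipolar and -0.177 for Müller markers there. The part of other retinal cells in the member differences was not tested. Control rod replicate 2 had the highest summed amacrine (4146) and bipolar (10155) values of the rod libraries. The bipolar value of Pkm2_Rodko rod replicate 3 was close to it, at 10039. Summed Müller markers were highest in control rod replicate 3, at 14786 against 13499 in control rod replicate 2. Without control rod replicate 2, 12 members were lower at an unadjusted p under 0.05 and the member median was -0.205. Without Pkm2_Rodko rod replicate 2 the count was also 12, with a median of -0.297.

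In retina no member differed between genotypes (0 of 83, limma, edgeR and DESeq2), and of all genes 0.00391% were lower and 0% higher. At an unadjusted p under 0.05 there was 1 member, against 1.82% of all genes higher and 2.17% lower. It was Kcnmb3, with 0 to 4.99 common-scale reads per retina library. The median was -0.0453. Kcnj14 (0.18), Kcnk12 (1.08) and Kcna4 (-0.35) also had small p-values among the members, none under 0.05. The genotype difference in rods was also set against that in retina. No member passed (0 of 83, smallest adjusted p = 0.978, limma), as was so for all genes, and edgeR and DESeq2 called 0. At an unadjusted p under 0.05, 6 members were more negative in rods and 1 was more positive, where all genes gave 2.6% and 1.81%. The smallest p-values belonged to Kcnh8, which was more positive in rods at 2.35 (unadjusted p = 0.00116, limma), and Kcne4 at -2.34 (unadjusted p = 0.00647, limma), both on counts near the detection limit in rods. Kcnh6 gave -0.46, Kcnip4 -0.51 and Kcnh2 -0.56, with unadjusted p = 0.0133, 0.0127 and 0.0157 (limma).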

How the data were processed

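The authors deposited 1 table with a scaled signal per gene and library, which is reads divided by a size factor set separately for rods and retina and rounded to 1 decimal. The submitters' processing notes name CASAVA 1.8.2, HISAT2, DESeq2, edgeR and GRCm39, with no roles. The counting tool, annotation and strand setting are not given in the sources used here. Whole reads were recovered for 99.997% of positive values within a tolerance of 0.05, scaled by TMM over all 12 libraries, and tested on log2(level + 1), which understates changes of low genes, with limma 3.58.1 (R 4.3.3; 4 group means, variance trend) over genes with a mean of at least 1 in 1 group. Count tests on the recovered reads, with DESeq2 1.42.0 or edgeR's quasi-likelihood test (4.0.16), served as alternatives, as did RLE, total-read and deposited scaling, a pseudocount of 0.1, other filters, the replicate block and leaving out each library. The Benjamini-Hochberg threshold was 0.05. Depth was 13458890 to 22790074 reads, and 3 libraries per group limit precision; counting floors cover counting error only. Exon lengths and sequences came from GENCODE vM21 (GRCm38), joined by Ensembl identifier, and no GRCm38 coordinate was set against the files.

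In data simulated for the genotype comparison in rods (24667 genes), limma called 25% of those altered by 0.5 on the log2 scale, 79.7% of those altered by 1 and 95.5% of those altered by 1.5, and made 12 wrong calls. Altered genes were drawn only from those above a minimum mean level in rods, so these shares do not cover members with few rod reads. The simulation altered 64, 69 and 67 genes by these sizes, whereas 17 genes passed in the real comparison. The adjustment is laxer when more genes change, so these shares can be too high for the real comparison. Members, gene lists and tests were chosen with earlier results of these data known. Named genes are the 8 highest per kilobase in control rods and in control retina, members called higher in rods, the 10 most reduced, the 5 with the smallest p in each genotype comparison, and a list with known retinal roles. Rod and retina libraries of the same genotype and number deviated together (r = 0.273 to 0.556 in 6 pairs), so numbers pair fractions within a genotype. Python 3.11.15 and matplotlib 3.10.9 drew the figures. Some genes are not reported here, in the text or the figures, and they are kept in all fits and counts.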

Additional observations from a re-analysis of the deposited data

How the results depend on the processing

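The 2 members higher in rods were the same under every alternative run, and the number lower ran from 64 to 74 in control and from 65 to 75 in Pkm2_Rodko mice. Kcnn1, at 0.16 in control by TMM, stood at -0.39 with total reads only and -0.436 on the deposited values, where it was called lower; the median of all genes moved to -0.761 and -0.798. For the 0 members called by genotype in rods, a pseudocount of 0.1 gave 2 (Kcne4 and Kcnh8, both with 0 reads in 1 group) and DESeq2 gave 3. Leaving out 1 library gave 0 to 3: 3 without control rod replicate 1 (Kcnab1, Kcnc4 and Kcnip4), 1 without Pkm2_Rodko rod replicate 1 (Kcnip1) and 0 for the other 4. The cause was not tested, and the share of all genes called was not counted for any of these alternatives. The members lower at an unadjusted p under 0.05 then ran from 12 to 29, and were 11 with the 6 rod libraries fitted alone. With genotype and replicate number together as the block, 71 members were lower and 2 higher in rods in each genotype. With the replicate number alone as the block, 0 were called by genotype. The blocks changed none of these counts. Between genotypes the numbers did not pair libraries (r from -0.29 to 0.0376). Counts in retina and of differing genotype effects stayed at 0 in every alternative. Of the values of named genes, 887 kept direction and side of the threshold, 13 gained a call, and 2 called values, those of Kcnn1 in control, reversed. Another 9 changed sign without a call, among them values of Kcnj14 by genotype in rods (-0.0324 to 0.126), Kcnab2 in control (up to 0.132) and Kcnn1 in Pkm2_Rodko mice (up to 0.0269). Lengths do not enter any test, and members with few reads per rod library cannot show modest differences at this depth.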
